A study of Mus musculus with 41 samples.

Results

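The genes described here are the EGF receptor ligands Egf, Hbegf, Tgfa, Areg, Ereg and Btc and the receptors Egfr, Erbb2, Erbb3 and Erbb4. These 10 genes were chosen by name out of the 48795 genes in the deposited count table. The measurements are 3′ end mRNA counts in 41 mouse libraries, in a study of removing the opposite kidney after ischemic injury of the other. Libraries with a group came from a frozen piece of a kidney pole. In the first cohort, male mice aged 8 to 10 weeks formed 4 groups of 6. The UIRI+Nx d7 mice had unilateral ischemia-reperfusion injury (UIRI) of the left kidney, with 21 min of ischemia while the core was held at 34 °C, lost the uninjured kidney by nephrectomy (Nx) on day 3 and were killed on day 7. The UIRI d7 mice had the same ischemia with a sham nephrectomy on day 3, the UIRI d3 mice were killed on day 3 after ischemia, and the Control mice had no ischemia, with no control surgery stated. The second cohort held 4 WT_IRNxd7, 6 WT_IRd7 and 6 WT_IRd3 libraries, tagged UIRI+Nx on day 7, UIRI on day 7 and UIRI on day 3, and no group without injury was analysed here. The titles of the second cohort carry the label WT (wild type), and those of the first carry no genotype. Strain is not given in the sources used here for either cohort. Age, sex, sham surgery, ischemia time, core temperature and the day of nephrectomy are not given there for the second. The remaining library is labelled UNDETERMINED, has no group and enters no comparison.

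EGF family ligands are made as membrane-anchored precursors, and metalloproteases such as ADAM17 cut them loose. A bound ligand pairs EGFR with itself or with another ErbB receptor, and the pair signals through the RAS-ERK and PI3K-AKT pathways. In the kidney, Egf is made mainly by cells of the thick ascending limb and the distal convoluted tubule, while HB-EGF, TGF-alpha, amphiregulin and epiregulin are known as ligands of injured or inflamed epithelium. ErbB2 has no ligand of its own and ErbB3 has little kinase activity, so both work through a partner.

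On the GRCm38 annotation (GENCODE), the build named for the first cohort, Egf lies on chromosome 3 (129677565 to 129755316, minus strand). Areg (91139599 to 91148432), Ereg (91074622 to 91093646) and Btc (91357261 to 91402994) lie together on chromosome 5, with 46.0 kb between Ereg and Areg and 209 kb between Areg and Btc. Tgfa lies on chromosome 6, Egfr (16752203 to 16918158) and Erbb2 (98412470 to 98437716) on 11, Erbb3 on 10 and Erbb4 on 1. The promoters of Egf and Areg are shown because these ligands moved furthest, and in opposite directions, after injury. Both are RefSeq sequences on GRCm38.p6, from 250 bases before to 50 bases after the start, 5′ to 3′ along the gene, at chr3:129755273-129755572 (minus strand, the outer of the 2 Egf starts listed) and chr5:91139349-91139648 (plus strand). Capitals mark a cyclic AMP response element (CRE, searched as TGACGTCA, which reads the same on both strands).
Egf promoter: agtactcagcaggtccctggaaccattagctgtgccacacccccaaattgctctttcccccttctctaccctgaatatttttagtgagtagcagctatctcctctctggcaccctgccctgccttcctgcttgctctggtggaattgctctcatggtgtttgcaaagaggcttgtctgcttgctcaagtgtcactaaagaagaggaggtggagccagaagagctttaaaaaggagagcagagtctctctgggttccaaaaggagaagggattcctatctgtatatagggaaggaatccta
Areg promoter: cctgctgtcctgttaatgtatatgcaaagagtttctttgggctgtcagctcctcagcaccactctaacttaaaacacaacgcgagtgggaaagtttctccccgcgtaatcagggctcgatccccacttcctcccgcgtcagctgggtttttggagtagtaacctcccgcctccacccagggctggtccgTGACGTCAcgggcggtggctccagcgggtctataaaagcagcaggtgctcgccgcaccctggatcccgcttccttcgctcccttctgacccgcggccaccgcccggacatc
The element in Areg begins 61 bases before the start, and 1.79% of 32851 mouse promoters of the same length hold these letters. The AP-1 letters TGANTCA, searched on both strands and held by 7.81% of the promoters, were in neither window. Promoters of 7 of the 10 genes were searched, without Hbegf, Ereg and Erbb3. No other window among them had either motif.

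Libraries held 5090418 to 33362940 counts, and all 10 genes passed the filter on low counts in both cohorts. Values are CPM, a gene's counts scaled to a common library size with edgeR's TMM factors, computed within a cohort. Tests are edgeR quasi-likelihood tests with Benjamini-Hochberg adjustment over all genes tested (15701 in the first cohort, 15543 in the second), and a gene is called when its adjusted p is under 0.05. Replicates are separate samples by their labels, and where they are not separate animals the p-values cover only technical spread. UIRI d7 replicate 4 stood apart, with a median Spearman correlation of 0.90 with its own group, against at least 0.945 for every other library, so results that turn on it are given without it as well. The labels name no batch, so library blocks were read from the running S number that ends each library's column name. First-cohort libraries fell in block 1a, 1b or 2b, while second-cohort libraries fell in 2a or 2c. The S numbers run on from block 2a through 2b to 2c, although 2b belongs to the first cohort. Whether these 3 blocks were sequenced together is not given in the sources used here. UIRI d7 has no library in block 2b. Summed CPM of 8 thick ascending limb and distal convoluted tubule markers was 1770 to 2980 in UIRI+Nx d7, 1380 to 2040 in UIRI d7 and 2110 to 3060 in UIRI d3, against 4930 to 6900 in Control. Summed CPM of 10 macrophage markers was 1110 to 2120, 1400 to 3180 and 466 to 902 in the same injured groups, against 162 to 323 in Control. That of 9 injured tubule markers was 1550 to 2430, 2470 to 3280 and 2590 to 4020, against 242 to 329 in Control. That of 7 fibroblast markers was 1660 to 2060, 1110 to 1990 and 1020 to 1580, against 257 to 401 in Control, and that of 5 neutrophil markers 25.9 to 53.4, 23.4 to 201 and 44.0 to 1940, against 2.94 to 12.6 in Control. That of 10 proximal tubule markers was 2770 to 6250, 3170 to 4650 and 4810 to 5680, against 11500 to 15300 in Control. Their part in the results below was not tested.

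Egf, the ligand of the distal nephron, fell in every injured group. It lay between 5.99 and 42.0 CPM in UIRI+Nx d7 (median 15.5), between 12.5 and 24.3 CPM in UIRI d7 (median 17.4) and between 18.03 and 26.9 CPM in UIRI d3 (median 24.2), against 362 to 836 CPM in Control (median 603). The injured and Control libraries did not overlap: the highest of the 18 had 42.0 CPM and the lowest Control 362 CPM. The log2 fold change against Control was -4.93 in UIRI+Nx d7 (SE 0.34, edgeR adjusted p = 3.49e-11), which is 30.5-fold lower. In UIRI d7 it was -5.02 (SE 0.34, edgeR adjusted p = 2.4e-11), or 32.3-fold lower, and in UIRI d3 -4.62 (SE 0.34, edgeR adjusted p = 6.44e-11), or 24.5-fold lower. These comparisons share their Control libraries. Within block 1a the log2 fold changes were -4.86, -5.13 and -5.01 for UIRI+Nx d7, UIRI d7 and UIRI d3, and within block 2b -5.27 for UIRI+Nx d7 and -4.00 for UIRI d3. The second cohort gave like levels without a Control to set them against: 18.1, 8.10, 15.3 and 5.61 CPM in WT_IRNxd7, 15.9 to 23.2 CPM in WT_IRd7 (median 18.6) and 16.2 to 29.7 CPM in WT_IRd3 (median 27.5). In whole tissue, fewer cells of a type and less RNA per cell cannot be told apart.

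Egf was also set against 8 other marker genes of its nephron segment. Per library, log2(CPM + 1) of Egf minus the mean log2(CPM + 1) of these markers (Umod, Slc12a1, Kcnj1, Cldn16, Cldn19, Slc12a3, Pvalb and Trpm6) averaged -1.63 ± 0.67 in UIRI+Nx d7, -1.19 ± 0.32 in UIRI d7 and -0.999 ± 0.258 in UIRI d3, against 2.03 ± 0.46 in Control (SD, n = 6 each). Relative to Control the differences were -3.66, -3.22 and -3.03, or 12.6-, 9.34- and 8.17-fold lower. Each had an exact two-sided permutation p = 0.00216, the smallest that 6 against 6 libraries allow, and 0.00649 adjusted over the 9 comparisons. Slc12a3, the thiazide-sensitive transporter of the distal convoluted tubule, fell in the same comparisons, with log2 fold changes of -1.997, -2.47 and -2.29 (edgeR adjusted p = 1.85e-07, 5.13e-09 and 2.23e-08). Umod, the uromodulin of the thick ascending limb, was named after its values were seen and had log2 fold changes of -1.09, -1.23 and -0.51, and the last of these, in UIRI d3, was not called (edgeR adjusted p = 0.0886). Of the 8 markers 5, 6 and 5 were lower in UIRI+Nx d7, UIRI d7 and UIRI d3 and none was higher, where 14.0%, 18.1% and 14.9% of all genes tested were lower. Their median log2 fold changes were -0.996, -1.55 and -1.19, against medians of 0.02, 0.04 and 0.00 over all genes tested.

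**Figure D1:**
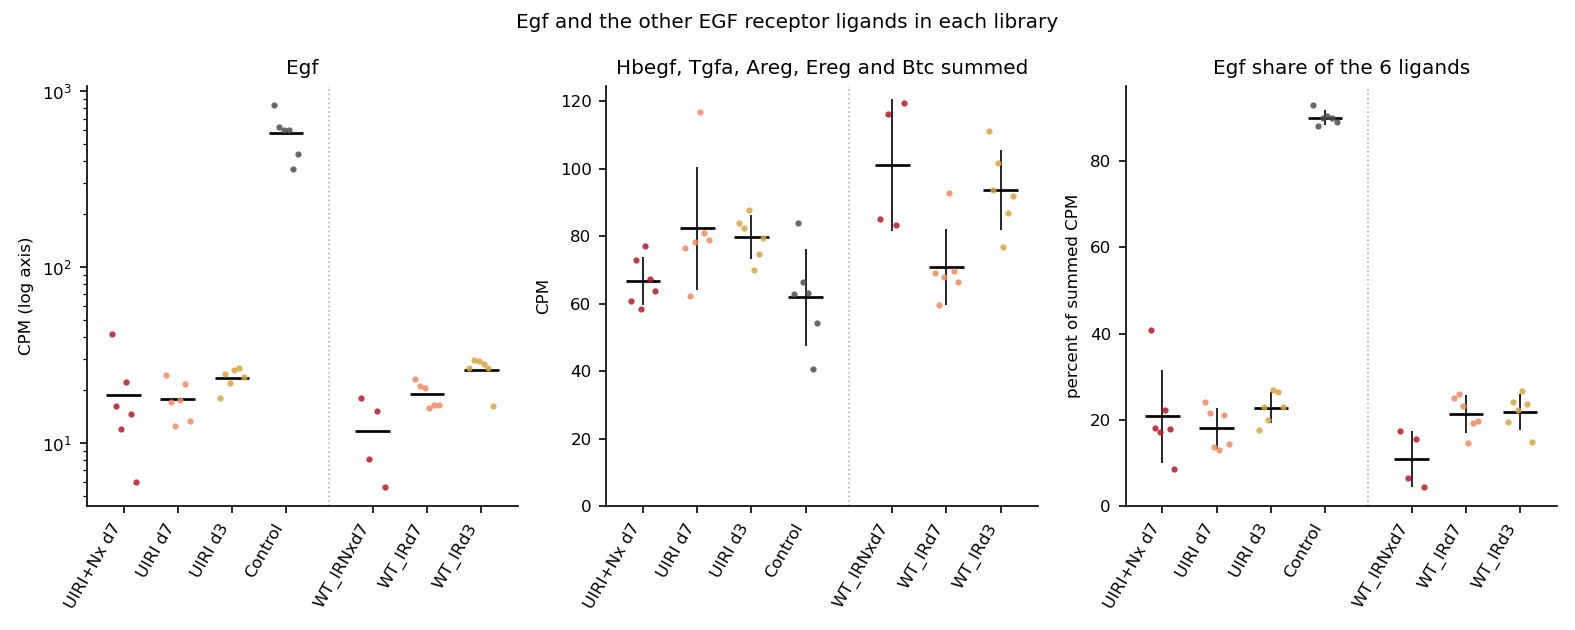
Egf CPM on a log axis (left), summed CPM of the other 5 ligands (middle) and the Egf share of the 6 ligands in percent (right), 1 point per library and a bar at each group mean, with vertical lines of 1 SD in the middle and right panels. All 18 injured libraries of the first cohort lie below every Control library in the left panel, and the Egf share averages 20.9%, 18.1% and 22.9% in UIRI+Nx d7, UIRI d7 and UIRI d3, against 90.1% in Control.

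The other ligands together differed from Control by little in absolute terms. A 3′ library counts 1 end per transcript, so counts of different genes were set beside each other without dividing by length. Hbegf, Tgfa, Areg, Ereg and Btc summed to 66.7 ± 7.21 CPM in UIRI+Nx d7, 82.3 ± 18.2 CPM in UIRI d7 and 79.6 ± 6.49 CPM in UIRI d3, against 61.8 ± 14.3 CPM in Control (SD, n = 6 each). All 6 ligands together came to 85.5, 100 and 103 CPM in these injured groups, against 640 CPM in Control. Egf made up 20.9% ± 10.8, 18.1% ± 4.77 and 22.9% ± 3.61 of the ligand counts in the injured groups, against 90.1% ± 1.65 in Control, and 11.002% ± 6.45, 21.4% ± 4.29 and 21.9% ± 4.14 in WT_IRNxd7, WT_IRd7 and WT_IRd3. Hbegf was the main ligand after injury: of the other 5 it held 80.3%, 81.5% and 79.6% in UIRI+Nx d7, UIRI d7 and UIRI d3, against 70.8% in Control. These sums describe the libraries and were not tested.

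Of the 10 genes, 4 were called in UIRI+Nx d7 (3 higher, 1 lower), 3 in UIRI d7 (2 higher, 1 lower) and 7 in UIRI d3 (5 higher, 2 lower), each against the shared Control. Over all genes tested, 31.3%, 39.6% and 32.7% were called in these comparisons, with 17.3%, 21.5% and 17.8% higher and 14.0%, 18.1% and 14.9% lower, so only the count in UIRI d3 lies well above the share of all genes. Groups without overlap were found for Egf in all 3 comparisons and for Hbegf in UIRI d3. Over all genes 7.38%, 9.61% and 8.08% were lower without overlap, and 10.3% were higher without overlap in UIRI d3.

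Hbegf, which encodes the heparin-binding ligand, was higher in UIRI d7 and UIRI d3 than in Control. It ran from 39.8 to 65.2 CPM in UIRI+Nx d7 (median 54.9), from 48.0 to 92.3 CPM in UIRI d7 (median 66.0) and from 54.1 to 68.8 CPM in UIRI d3 (median 64.4), against 22.8 to 53.2 CPM in Control (median 47.7). Every UIRI d3 library lay above every Control library, while the ranges of the other groups overlapped that of Control. The log2 fold change was 0.61 in UIRI d7 (SE 0.18, edgeR adjusted p = 0.00728), 0.53 in UIRI d3 (SE 0.18, edgeR adjusted p = 0.0226) and 0.29 in UIRI+Nx d7, which was not called (SE 0.18, edgeR adjusted p = 0.23). Without Control replicate 5, the lowest library, the call in UIRI d3 ended (0.39, edgeR adjusted p = 0.0526). Within block 1a the values were 0.43 for UIRI d7 and 0.36 for UIRI d3, and within block 2b 0.91 for UIRI d3, none of them called (edgeR adjusted p = 0.229, 0.403 and 0.0582).

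Tgfa, which encodes TGF-alpha, was called in UIRI d3 alone. It had 3.40 to 6.47 CPM in UIRI+Nx d7 (median 5.78), 4.48 to 9.20 CPM in UIRI d7 (median 6.90) and 4.89 to 11.5 CPM in UIRI d3 (median 8.11), against 3.17 to 7.10 CPM in Control (median 5.33). The ranges overlapped in every comparison. Its log2 fold change in UIRI d3 was 0.66 (SE 0.24, edgeR adjusted p = 0.0331), against 0.42 in UIRI d7 (SE 0.24, edgeR adjusted p = 0.172) and 0.07 in UIRI+Nx d7 (SE 0.24, edgeR adjusted p = 0.87). The call in UIRI d3 ended without Control replicate 1 or 3 or without UIRI d3 replicate 3, 4 or 5 (log2 fold change 0.53 to 0.63, edgeR adjusted p = 0.0614 to 0.0964), with no filter on low counts (0.65, edgeR adjusted p = 0.0785) and in a fit of the 2 groups alone (0.65, edgeR adjusted p = 0.0554), and it was not made within block 1a or 2b (0.63 and 0.36, edgeR adjusted p = 0.275 and 0.52).

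Areg and Ereg, which encode amphiregulin and epiregulin, were the ligands with the largest relative rise and the lowest levels. Areg was counted in 1 of 6 Control libraries, with 3 counts there, and summed to 65, 58 and 47 counts in UIRI+Nx d7, UIRI d7 and UIRI d3. In CPM it ran from 0 to 2.17 in UIRI+Nx d7 (median 0.81), from 0 to 1.64 in UIRI d7 (median 0.775) and from 0.0707 to 1.07 in UIRI d3 (median 0.602), against 0.156 in the single Control library that held any. The ranges overlapped because single UIRI+Nx d7 and UIRI d7 libraries were at 0 and 1 UIRI d3 library held a single count. A further UIRI d7 library, replicate 5, held 2 counts (0.1545 CPM) and lay just below that Control library. Per total count, Areg was 36.5 times as frequent in UIRI+Nx d7 as in Control (95% counting interval 11.9 to 181), 33.3 times in UIRI d7 (10.9 to 166) and 24.4 times in UIRI d3 (7.86 to 123). These intervals cover counting error only. The edgeR adjusted p was 6.28e-04, 0.00113 and 0.00336, and the fitted log2 fold changes of 4.67, 4.31 and 3.97 depend on a prior count because of the empty Control libraries. Within block 1a Areg was called in UIRI+Nx d7 and UIRI d7 (edgeR adjusted p = 0.0127 and 0.0347), and not in UIRI d3 (0.064), and within block 2b in neither UIRI+Nx d7 nor UIRI d3 (0.3 and 0.106).

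Ereg was called higher in UIRI+Nx d7 and UIRI d3. It had 0.309 to 1.25 CPM in UIRI+Nx d7 (median 0.633), 0.0773 to 0.52 CPM in UIRI d7 (median 0.315) and 0.354 to 2.58 CPM in UIRI d3 (median 0.978), against 0 to 0.778 CPM in Control, where 4 of 6 libraries were at 0 and replicate 4 held 9 of the 11 counts. That library alone made the ranges overlap in UIRI+Nx d7 and UIRI d3. In log2 terms the fold change was 2.40 in UIRI+Nx d7 (SE 0.79, edgeR adjusted p = 0.0217), 1.11 in UIRI d7 (SE 0.85, edgeR adjusted p = 0.328) and 3.00 in UIRI d3 (SE 0.78, edgeR adjusted p = 0.00369). Without Control replicate 4 UIRI d7 was called too (3.17, edgeR adjusted p = 0.00537). The call in UIRI+Nx d7 ended without Control replicate 2, 3 or 5 (2.03 to 2.09, edgeR adjusted p = 0.0516 to 0.0574). Within block 1a, where the Control libraries held no Ereg count, all 3 injured groups were called, and within block 2b UIRI+Nx d7 and UIRI d3 were not (3.22 and 3.20, edgeR adjusted p = 0.126 and 0.0886). Areg and Ereg lie next to each other in the chromosome 5 cluster, and Btc lies further along it.

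Btc, which encodes betacellulin, a ligand of both EGFR and ErbB4, was lower on average in every injured group, and called by edgeR in none of them. In UIRI+Nx d7 DESeq2 called it (-1.14, DESeq2 adjusted p = 0.0358), as did edgeR in a fit of the 2 groups alone (-1.13, edgeR adjusted p = 0.0348). It had 2.27 to 10.4 CPM in UIRI+Nx d7 (median 5.38), 3.27 to 19.6 CPM in UIRI d7 (median 5.65) and 2.48 to 14.6 CPM in UIRI d3 (median 5.82), against 5.09 to 25.3 CPM in Control (median 12.5). The ranges overlapped in every comparison. The log2 fold change was -1.12 in UIRI+Nx d7 (SE 0.46, edgeR adjusted p = 0.0677), -0.76 in UIRI d7 (SE 0.46, edgeR adjusted p = 0.197) and -0.94 in UIRI d3 (SE 0.46, edgeR adjusted p = 0.119). Without UIRI d7 replicate 4, which held 19.6 CPM and stood apart, Btc was called lower in UIRI d7 (-1.31, edgeR adjusted p = 0.0166) and in UIRI+Nx d7 (-1.12, edgeR adjusted p = 0.0338). The call in UIRI+Nx d7 was also made without UIRI+Nx d7 replicate 3, Control replicate 4 or 6 or UIRI d3 replicate 2 (-1.34 to -1.14, edgeR adjusted p = 0.0395 to 0.0477). Without UIRI d3 replicate 2 it was called lower in UIRI d3 (-1.36, edgeR adjusted p = 0.0254). With the library block as a covariate it was called lower in UIRI+Nx d7 and UIRI d7 (-1.14 and -0.88, edgeR adjusted p = 0.00771 and 0.0435).

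**Figure D2:**
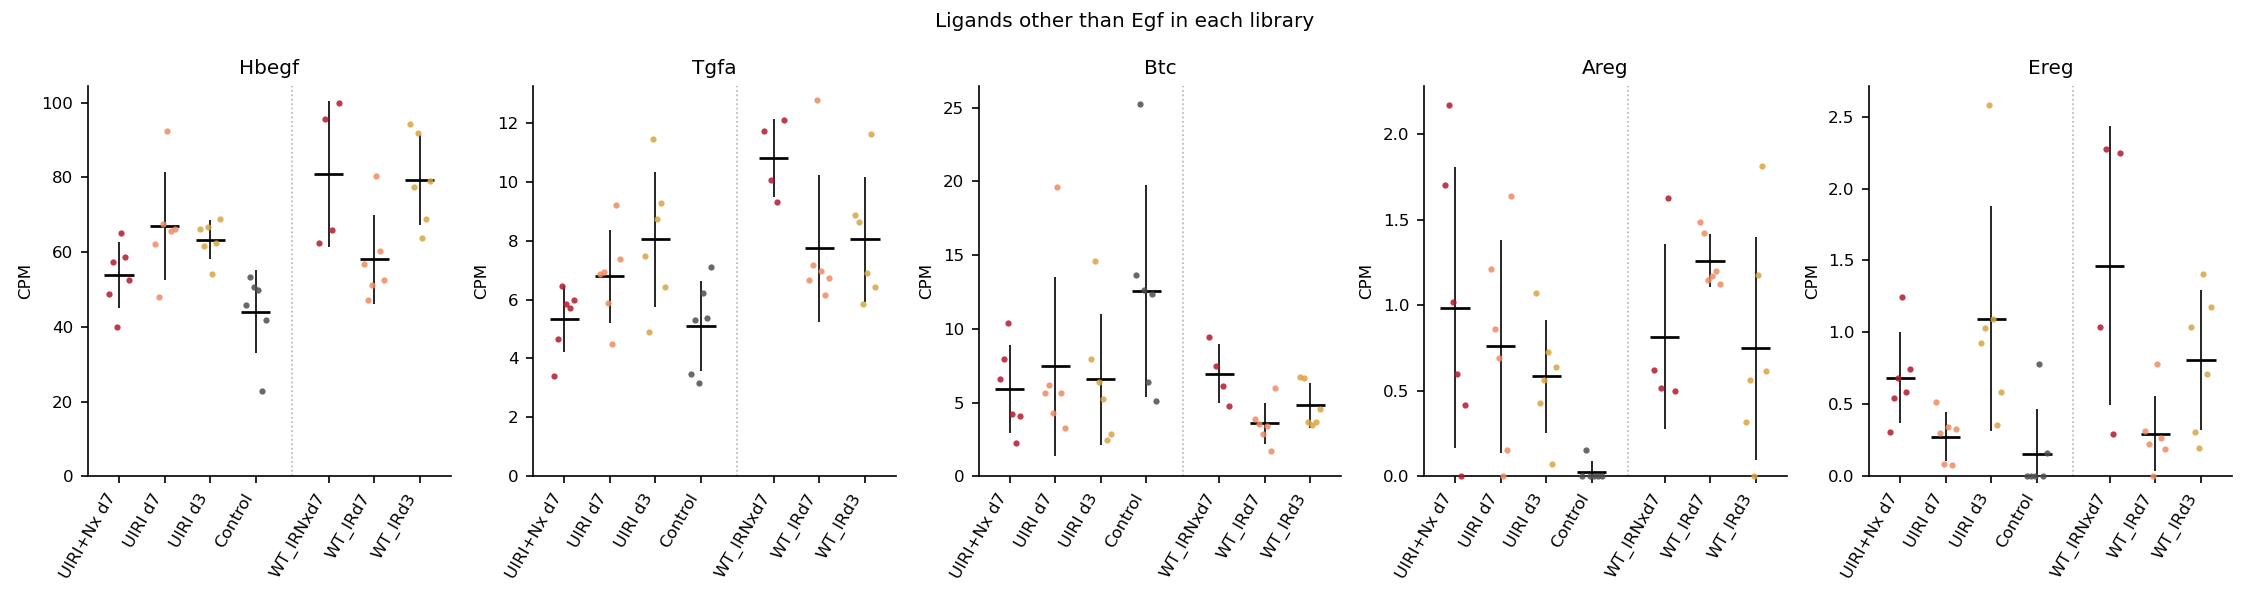
CPM of the 5 ligands other than Egf, 1 point per library, with the group mean as a bar and 1 SD as a vertical line; the dotted line parts the first cohort (left) from the second. Hbegf of every UIRI d3 library lies above every Control library, Areg is above 0 in 1 Control library, and 1 UIRI d7 library holds 19.6 CPM of Btc.

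Among the receptors, Egfr rose in UIRI+Nx d7 and UIRI d3. It had 42.6 to 76.9 CPM in UIRI+Nx d7 (median 59.8), 29.6 to 69.9 CPM in UIRI d7 (median 52.7) and 38.3 to 76.2 CPM in UIRI d3 (median 68.7), against 34.1 to 49.0 CPM in Control (median 38.5). The ranges overlapped, since the lowest libraries of each injured group lay within or below the Control range. The log2 fold change was 0.61 in UIRI+Nx d7 (SE 0.20, edgeR adjusted p = 0.0217), 0.40 in UIRI d7 (SE 0.20, edgeR adjusted p = 0.12) and 0.65 in UIRI d3 (SE 0.20, edgeR adjusted p = 0.0142). Without UIRI d7 replicate 4, the lowest of its group, Egfr was called in UIRI d7 too (0.52, edgeR adjusted p = 0.0298). The call in UIRI+Nx d7 ended without UIRI+Nx d7 replicate 2 or 3 (0.53 and 0.54, edgeR adjusted p = 0.0601 and 0.0575). Within block 1a the log2 fold changes were 0.76 in UIRI+Nx d7 and 0.17 in UIRI d3, neither called (edgeR adjusted p = 0.11 and 0.772), and within block 2b 0.45 (0.288) and 0.88, the last of them called (0.0245).

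Erbb2, the partner receptor without a ligand, was called in no group. Its means were 56.2 ± 9.50 CPM in UIRI+Nx d7, 74.6 ± 21.5 CPM in UIRI d7 and 67.7 ± 16.6 CPM in UIRI d3, against 61.8 ± 17.5 CPM in Control (SD, n = 6 each). The log2 fold changes were -0.13, 0.27 and 0.13 (95% intervals -0.54 to 0.27, -0.14 to 0.68 and -0.28 to 0.54). An exon of Erbb2 overlaps Mien1, which had 80303 counts over all libraries beside 41287 for Erbb2, and since the strand setting of the counting is not given in the sources used here, the level of Erbb2 is uncertain. Erbb3, the kinase-poor receptor for neuregulins, was not called either. It averaged 89.0 ± 48.9 CPM in UIRI+Nx d7, where 2 libraries held 145 and 158 CPM, 60.6 ± 24.1 CPM in UIRI d7 and 54.7 ± 20.1 CPM in UIRI d3, against 58.9 ± 13.6 CPM in Control (SD, n = 6 each). The log2 fold changes were 0.59, 0.04 and -0.11 (95% intervals -0.01 to 1.20, -0.57 to 0.65 and -0.72 to 0.50).

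Erbb4, a receptor for neuregulins, betacellulin and HB-EGF, was called lower in UIRI d3. It had 3.33 to 13.7 CPM in UIRI+Nx d7 (median 7.26), 4.02 to 17.7 CPM in UIRI d7 (median 8.23) and 2.06 to 6.96 CPM in UIRI d3 (median 4.19), against 2.12 to 16.6 CPM in Control (median 10.0). The ranges overlapped widely. Its log2 fold changes were -0.29 in UIRI+Nx d7 (SE 0.42, edgeR adjusted p = 0.655), -0.06 in UIRI d7 (SE 0.42, edgeR adjusted p = 0.927) and -1.13 in UIRI d3 (SE 0.43, edgeR adjusted p = 0.0456). The call lay near the threshold, and 11 of the 24 libraries left out in turn ended it (Control replicates 1, 2, 3 and 6, UIRI d3 replicates 1, 2, 4 and 5, UIRI d7 replicates 2 and 5 and UIRI+Nx d7 replicate 3), with log2 fold changes of -1.175 to -0.9152 (edgeR adjusted p = 0.0507 to 0.125). Of these libraries 3 are in neither group compared. It ended as well with the library block as a covariate (-0.76, edgeR adjusted p = 0.15), and within blocks 1a and 2b the values were -1.92 and -0.33 (edgeR adjusted p = 0.0376 and 0.755). The 4 receptors together summed to 214 ± 57.8 CPM in UIRI+Nx d7, 197 ± 44.6 CPM in UIRI d7 and 189 ± 39.4 CPM in UIRI d3, against 170 ± 26.8 CPM in Control (SD, n = 6 each).

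**Figure D3:**
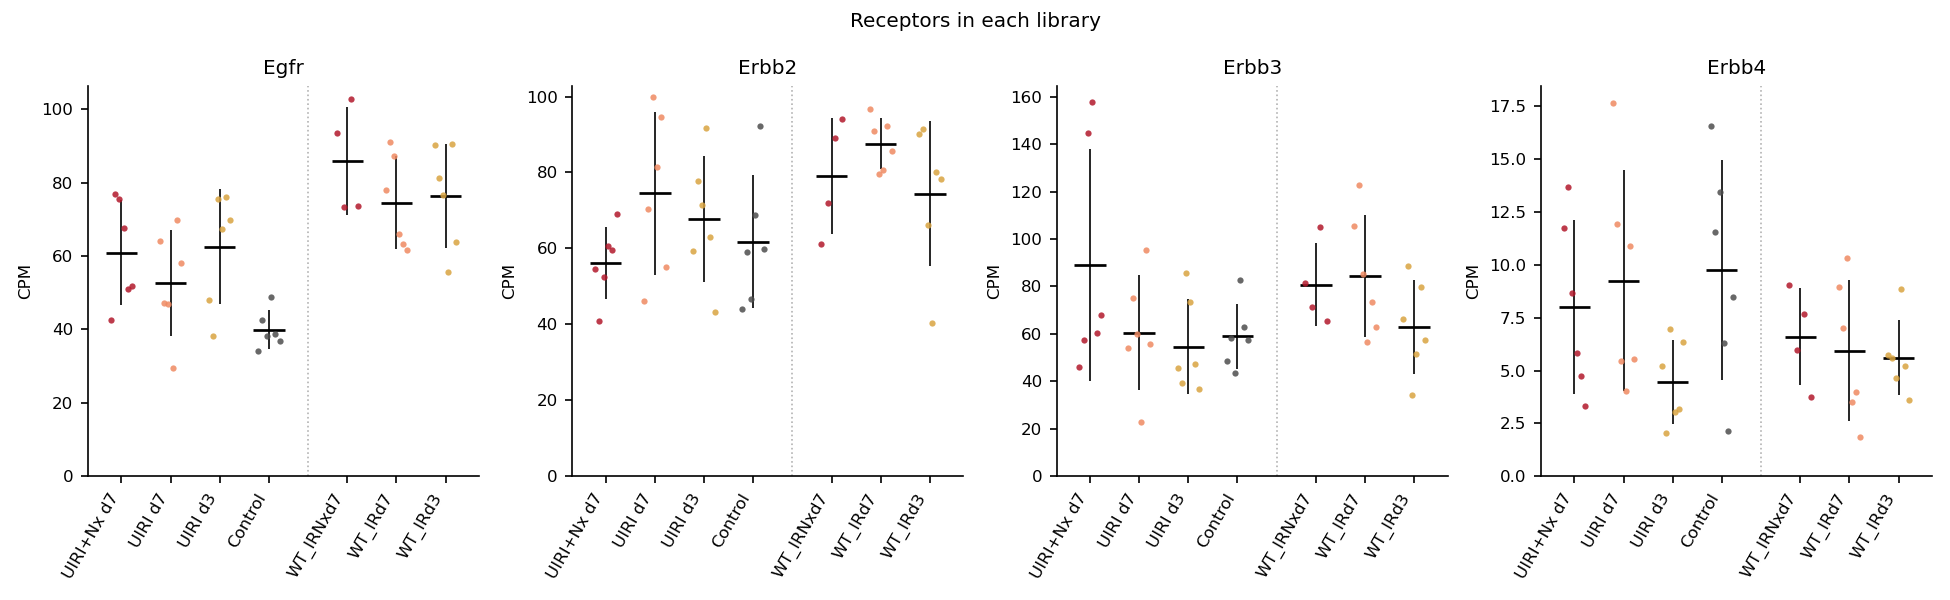
CPM of the 4 receptors, 1 point per library, with the group mean as a bar and 1 SD as a vertical line; the dotted line parts the first cohort (left) from the second. Egfr lies between 34.1 and 49.0 CPM in Control and reaches 76.9 CPM in UIRI+Nx d7, and Erbb3 holds 145 and 158 CPM in 2 UIRI+Nx d7 libraries.

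**Figure D4:**
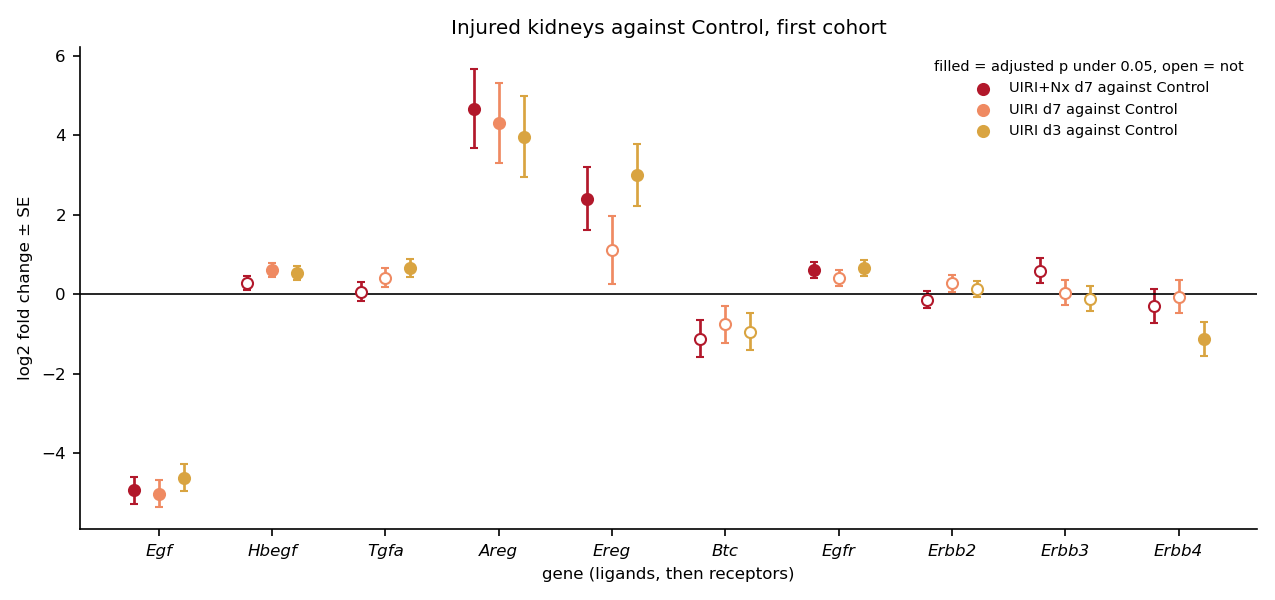
Log2 fold change of the 10 genes in UIRI+Nx d7, UIRI d7 and UIRI d3 against the shared Control, with SE as error bars; filled points have an edgeR adjusted p under 0.05. Egf lies between -5.02 and -4.62, Areg between 3.97 and 4.67, and the receptors between -1.13 and 0.65.

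The nephrectomy groups ask whether the loss of the uninjured kidney changed these genes by day 7. Nephrectomy was on day 3 in the first cohort, and its day is not given for the second. None of the 10 was called in UIRI+Nx d7 against UIRI d7 by edgeR or DESeq2, none had an unadjusted p under 0.05, and 6.62% of all genes were called. None was called in WT_IRNxd7 against WT_IRd7 by edgeR, where 5.24% of all genes were called. There 5 of the 10 had an unadjusted p under 0.05, and DESeq2 called 2 of them, Ereg (2.23, DESeq2 adjusted p = 0.0194) and Btc (0.98, DESeq2 adjusted p = 0.0155).

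In the first cohort the log2 fold changes of UIRI+Nx d7 against UIRI d7 lay near 0 for Egf (0.09, 95% interval -0.49 to 0.67) and Egfr (0.21, -0.18 to 0.60). They were -0.32 for Hbegf (-0.66 to 0.03), -0.35 for Tgfa (-0.81 to 0.12) and 1.29 for Ereg (-0.15 to 2.74). Egf of UIRI+Nx d7 spread widely, with 42.0 CPM in replicate 1 and 5.99 CPM in replicate 6. Without replicate 1 the log2 fold change turned to -0.32 (edgeR adjusted p = 0.545).

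In the second cohort Egf had a log2 fold change of -0.70 in WT_IRNxd7 against WT_IRd7 (SE 0.26, edgeR adjusted p = 0.132), with 3 of the 4 nephrectomy libraries, at 15.3, 8.10 and 5.61 CPM, below every WT_IRd7 library. Without WT_IRNxd7 replicate 1 it was called (-0.97, edgeR adjusted p = 0.0417). Hbegf had 62.4, 95.7, 66.0 and 99.9 CPM in WT_IRNxd7, against 47.1 to 80.3 CPM in WT_IRd7 (median 54.6), with a log2 fold change of 0.48 (SE 0.17, edgeR adjusted p = 0.116). It was called without WT_IRd7 replicate 4 (0.60, edgeR adjusted p = 0.0472). Tgfa had 11.7, 10.1, 9.31 and 12.1 CPM in WT_IRNxd7, above all WT_IRd7 libraries but 1 (6.15 to 12.8 CPM, median 6.85), and its log2 fold change was 0.49 (SE 0.22, edgeR adjusted p = 0.241).

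Ereg and Btc came closest to a call in that comparison. Ereg had 1.04, 2.28, 0.296 and 2.25 CPM in WT_IRNxd7, against 0 to 0.781 CPM in WT_IRd7 (median 0.248), with a log2 fold change of 2.18 (SE 0.65, edgeR adjusted p = 0.0572). Btc had 9.44, 7.50, 6.14 and 4.74 CPM in WT_IRNxd7, against 1.74 to 5.99 CPM in WT_IRd7 (median 3.50), with a log2 fold change of 0.97 (SE 0.29, edgeR adjusted p = 0.0566). In both genes 3 of the 4 nephrectomy libraries lay above every WT_IRd7 library. Ereg was called without WT_IRNxd7 replicate 3, WT_IRd7 replicate 4 or WT_IRd3 replicate 3 (edgeR adjusted p = 0.021, 0.0361 and 0.0474), and Btc without WT_IRNxd7 replicate 4 or WT_IRd7 replicate 6 (0.0458 and 0.0237). Areg stood at 0.623, 0.519, 1.63 and 0.499 CPM in WT_IRNxd7, against 1.12 to 1.48 CPM in WT_IRd7 (median 1.19), a log2 fold change of -0.63 (SE 0.61, edgeR adjusted p = 0.62).

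**Figure D5:**
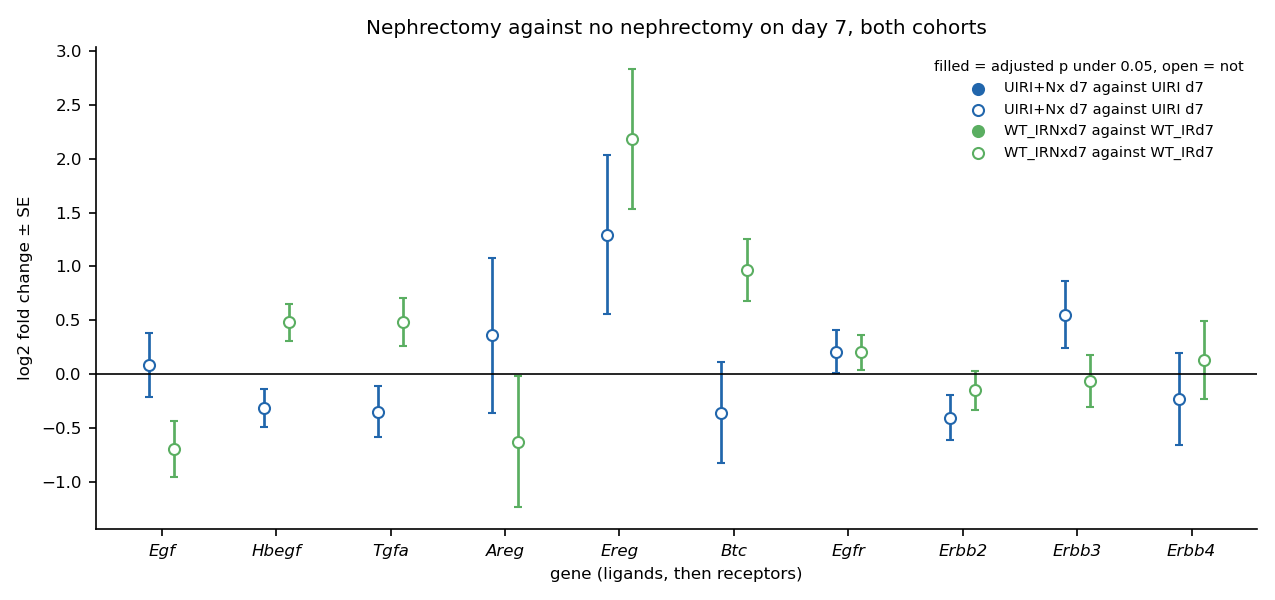
Log2 fold change of the 10 genes with nephrectomy against without on day 7, UIRI+Nx d7 against UIRI d7 and WT_IRNxd7 against WT_IRd7, with SE as error bars; all points are open because none has an edgeR adjusted p under 0.05. Of the 10 genes 7 lie on opposite sides of 0 in the cohorts: Hbegf, Tgfa, Btc and Erbb4 below it in the first and above it in the second, and Egf, Areg and Erbb3 the other way round.

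Of the 10 genes 7 had opposite signs in the cohorts. Hbegf, Tgfa, Btc and Erbb4 were at -0.32, -0.35, -0.36 and -0.23 in the first and at 0.48, 0.49, 0.97 and 0.13 in the second. Egf, Areg and Erbb3 were at 0.09, 0.36 and 0.55 in the first and at -0.70, -0.63 and -0.07 in the second. Without UIRI d7 replicate 4 Btc in the first cohort turned to 0.19 (edgeR adjusted p = 0.882). The signs of Egf, Areg and Erbb4 in the first cohort, and of Erbb3 and Erbb4 in the second, also turned when 1 library was left out. In a joint edgeR fit of 16606 genes the second cohort minus the first was 0.80 for Hbegf (SE 0.25, unadjusted p = 0.00262, edgeR adjusted p = 0.488), 0.83 for Tgfa (SE 0.33, unadjusted p = 0.0165, edgeR adjusted p = 0.557) and 1.33 for Btc (SE 0.61, unadjusted p = 0.0353, edgeR adjusted p = 0.573). The other 7 had unadjusted edgeR p of 0.0695 to 0.998. No gene at all was called for this difference by edgeR, with 1411 at an unadjusted p under 0.05, and DESeq2 called 4. The cohorts differ in the build and aligner version named for them and share no library block. Ischemia time, core temperature, the day of nephrectomy and age are not given for the second cohort. The part of any of these was not tested, and they cannot be told apart here.

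Egf beside the segment markers was lower on average with nephrectomy than without on day 7 in both cohorts. The measure averaged -1.89 ± 0.48 in WT_IRNxd7 (SD, n = 4), against -0.97 ± 0.28 in WT_IRd7 and -0.84 ± 0.25 in WT_IRd3 (SD, n = 6 each). The difference of WT_IRNxd7 from WT_IRd7 was -0.92 (exact two-sided permutation p = 0.019, adjusted p = 0.0343), and from WT_IRd3 -1.05 (p = 0.00952, the smallest that 4 against 6 libraries allow, adjusted p = 0.0214). Against Umod and Slc12a1 alone these differences were -0.88 and -0.65 and no longer passed (adjusted exact permutation p = 0.15 and 0.171). The difference from WT_IRd7 passed in 2 of the 10 leave-one-out repeats and that from WT_IRd3 in 7 of 10, at adjusted exact permutation p of up to 0.0812 and 0.0536. The first was lost without WT_IRNxd7 replicate 2, 3 or 4 or WT_IRd7 replicate 1, 2, 3, 4 or 5 (-1.01 to -0.77), and the second without WT_IRNxd7 replicate 2, 3 or 4 (-1.13 to -0.89). In those last repeats the 3 and 6 libraries did not overlap and the unadjusted p was the smallest that 3 against 6 libraries allow. In the first cohort UIRI+Nx d7 differed from UIRI d7 by -0.43 (exact permutation p = 0.188, adjusted p = 0.242) and from UIRI d3 by -0.63 (p = 0.0541, adjusted p = 0.0812). Without UIRI+Nx d7 replicate 1 these were -0.64 and -0.83 and passed (adjusted exact permutation p = 0.0245 and 0.0171).

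Between day 3 and day 7 without nephrectomy no member was called in either cohort by edgeR or DESeq2, while 2.60% and 8.56% of all genes were, in UIRI d7 against UIRI d3 and in WT_IRd7 against WT_IRd3. Unadjusted, Ereg and Erbb4 had p under 0.05 in the first cohort, and Hbegf and Ereg in the second. Ereg was lower on average on day 7 in both, with log2 fold changes of -1.90 (SE 0.72, edgeR adjusted p = 0.199) and -1.31 (SE 0.62, edgeR adjusted p = 0.209). Erbb4 had a log2 fold change of 1.07 in the first cohort (SE 0.43, edgeR adjusted p = 0.237) and 0.12 in the second (SE 0.32, edgeR adjusted p = 0.877). Hbegf had 0.08 (SE 0.18, edgeR adjusted p = 0.915) and -0.45 (SE 0.15, edgeR adjusted p = 0.0778), and it was called in the second cohort without WT_IRd7 replicate 4 (-0.56, edgeR adjusted p = 0.0291). Nephrectomy on day 7 against day 3 gave 1 member called, Egf in WT_IRNxd7 against WT_IRd3 (log2 fold change -1.15, SE 0.26, edgeR adjusted p = 0.00947), where 6.02% of all genes were called and 3.04% were lower. In UIRI+Nx d7 against UIRI d3 none was called by edgeR or DESeq2, 2 had an unadjusted p under 0.05 (Tgfa and Erbb3), and 5.13% of all genes were called. Within block 2a the difference of Egf was -1.03 and not called (edgeR adjusted p = 0.1), and WT_IRd3 has no library in block 2c.

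The other genes of the pathway followed lists of 5 kinds. Among 5 further ErbB ligands 2 passed the filter, and Nrg1, which encodes neuregulin 1, a ligand of ErbB3 and ErbB4, rose to 16.5 ± 5.89 CPM in UIRI+Nx d7, 13.7 ± 3.35 CPM in UIRI d7 and 18.2 ± 5.25 CPM in UIRI d3, against 5.02 ± 3.06 CPM in Control (SD, n = 6 each). Its log2 fold changes were 1.71, 1.45 and 1.87 (edgeR adjusted p = 6.35e-05, 2.8e-04 and 1.9e-05). Nrg4, an ErbB4 ligand, fell in UIRI d7 and UIRI d3 by 2.03 and 1.72 on the log2 scale (edgeR adjusted p = 0.00123 and 0.00482), and within blocks 1a and 2b its value in UIRI d3 was -0.90 and -1.58, neither called (edgeR adjusted p = 0.187 and 0.199).

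Of 8 ligand shedding genes 5 rose and 1 fell in each injured group, with medians of 0.63, 0.79 and 0.79 in UIRI+Nx d7, UIRI d7 and UIRI d3, against 0.02, 0.04 and 0.00 over all genes. Of all genes tested 17.3%, 21.5% and 17.8% were higher and 14.0%, 18.1% and 14.9% lower in these comparisons, and the counts of the lists that follow stand beside the same shares. Adam12, a metalloprotease known to shed HB-EGF, rose to 24.8 ± 6.26, 21.0 ± 5.90 and 22.1 ± 8.13 CPM, against 2.82 ± 0.61 CPM in Control (log2 fold changes 3.12, 2.88 and 2.95, edgeR adjusted p = 9.55e-10, 2.17e-09 and 1.69e-09). Rhbdf2, which encodes the iRhom2 partner of ADAM17, rose by log2 fold changes of 1.45, 1.93 and 1.88 (edgeR adjusted p = 1.19e-04, 1.95e-06 and 3.96e-06). Adam17 itself, named after its values were seen, rose by 0.70, 0.84 and 0.81 (edgeR adjusted p = 0.0226, 0.0051 and 0.00843). The member that fell was Timp3, an inhibitor of ADAM17, with 1294 ± 118, 1432 ± 238 and 2087 ± 305 CPM, against 3355 ± 504 CPM in Control (log2 fold changes -1.37, -1.23 and -0.68, edgeR adjusted p = 9.38e-08, 3.57e-07 and 8.2e-04). Within blocks 1a and 2b Timp3 in UIRI d3 was -0.64 and -0.72 and not called (edgeR adjusted p = 0.11 and 0.138).

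Of 16 inhibitors and receptor turnover genes 6, 4 and 4 rose and none fell in UIRI+Nx d7, UIRI d7 and UIRI d3 (medians 0.41, 0.32 and 0.23). They included Spred3, a RAS-ERK inhibitor (log2 fold changes 1.63, 2.20 and 2.27, edgeR adjusted p = 5.78e-04, 1.23e-05 and 1.09e-05), and Cblb, a ubiquitin ligase of receptor turnover (0.69, 0.89 and 0.68, edgeR adjusted p = 0.0137, 0.00134 and 0.0147). Cblb was called within neither block 1a nor block 2b (edgeR adjusted p = 0.0562 to 0.749), and Spred3 in UIRI+Nx d7 not within block 1a (1.41, edgeR adjusted p = 0.0869). Of 22 signal transducers 5, 7 and 4 rose and 3, 4 and 4 fell (medians 0.27, 0.14 and 0.04), beside 17.3%, 21.5% and 17.8% of all genes higher and 14.0%, 18.1% and 14.9% lower. Shc1, the receptor adaptor, was among those that rose (0.98, 0.95 and 0.84, edgeR adjusted p = 1.98e-05, 1.98e-05 and 1.3e-04), and Braf, a RAF kinase named after its values were seen, among those that fell (-0.66, -0.64 and -0.62, edgeR adjusted p = 0.0129, 0.0118 and 0.0185). Of 14 ERK-induced genes 10, 9 and 9 rose and none fell (medians 1.17, 1.70 and 1.17). Plaur, the urokinase receptor, rose to 14.6 ± 4.79, 10.6 ± 1.29 and 17.6 ± 5.06 CPM, against 1.78 ± 0.41 CPM in Control, and Dusp5, an ERK phosphatase, to 17.8 ± 4.29, 19.7 ± 6.82 and 25.6 ± 8.84 CPM, against 2.54 ± 0.83 CPM in Control. Their log2 fold changes lay between 2.56 and 3.33 (edgeR adjusted p up to 7.38e-09). Many of these genes are also made in macrophages, fibroblasts and other cells, whose marker sums are given above, and the part of those cells was not tested.

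After nephrectomy 1 pathway gene was called in both cohorts, Errfi1, which encodes MIG6, a feedback inhibitor of EGFR. How many of all genes were called in both cohorts was not counted. It had 293 ± 117 CPM in UIRI+Nx d7, against 140 ± 70.5 CPM in UIRI d7 (SD, n = 6 each; log2 fold change 1.07, SE 0.28, edgeR adjusted p = 0.0223). In the second cohort it had 332 ± 9.50 CPM in WT_IRNxd7 (SD, n = 4), against 216 ± 32.8 CPM in WT_IRd7 (SD, n = 6; log2 fold change 0.62, SE 0.14, edgeR adjusted p = 0.0127). The call in the first cohort ended in a fit of the 2 groups alone (1.06, edgeR adjusted p = 0.0685) and without UIRI+Nx d7 replicate 4 or UIRI d7 replicate 2, 3 or 4 (0.84 to 0.999, edgeR adjusted p = 0.0515 to 0.0784), and it held within block 1a (1.52, edgeR adjusted p = 0.0173). In the second cohort it held in all 16 leave-one-out repeats, and within blocks 2a and 2c the values were 0.45 and 0.71, neither called (edgeR adjusted p = 0.498 and 0.32). Summed CPM of 13 connecting tubule and collecting duct markers was 820 to 1740 in UIRI+Nx d7, against 452 to 773 in UIRI d7, and 636 to 1000 in WT_IRNxd7, against 293 to 433 in WT_IRd7. That of the 9 injured tubule markers was 1550 to 2430 in UIRI+Nx d7, against 2470 to 3280 in UIRI d7, and 2240 to 2940 in WT_IRNxd7, against 2360 to 4160 in WT_IRd7. The part of these cells in the nephrectomy results was not tested. The other calls were in WT_IRNxd7 against WT_IRd7, with Etv4, an ERK-induced transcription factor (1.37, SE 0.24, edgeR adjusted p = 0.002), Ccnd1, cyclin D1 (0.56, SE 0.16, edgeR adjusted p = 0.0464), and Araf, a RAF kinase (0.48, SE 0.12, edgeR adjusted p = 0.0189). None of these 3 was called within block 2a or 2c (edgeR adjusted p = 0.116 to 0.718), where the log2 fold changes were 1.03 and 1.63 for Etv4, 0.42 and 0.47 for Araf and 0.63 and 0.35 for Ccnd1. The calls of Araf and Ccnd1 ended with no filter on low counts (edgeR adjusted p = 0.0567 and 0.0771) and in a fit of the 2 groups alone (0.0629 and 0.115), and that of Ccnd1 also with the replicate number as a block (0.0616) and with the library block as a covariate (0.0528). The call of Araf ended without WT_IRNxd7 replicate 2 (0.42, edgeR adjusted p = 0.106), and that of Ccnd1 in 11 of 16 leave-one-out repeats, without WT_IRNxd7 replicate 1, 2 or 4, WT_IRd7 replicate 1, 4, 5 or 6, or WT_IRd3 replicate 1, 2, 3 or 5 (0.41 to 0.61, edgeR adjusted p = 0.0519 to 0.242). Of the lists, 1 of 16 inhibitors, 1 of 22 transducers and 2 of 14 ERK-induced genes were thus higher with nephrectomy in the second cohort. In the first, 1 of 16, 0 of 22 and 0 of 14 were higher, and none of these genes was lower in either cohort. Of all genes 5.24% and 6.62% were called in either direction in the second and first cohorts. With so few genes called, these counts do not set the lists apart from all genes.

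The genes whose log2 CPM followed Egf most closely over the 24 libraries of the first cohort were Nceh1, Acsm2, Lap3, Dpys and Stxbp5l, with Spearman correlations of 0.88, 0.878, 0.874, 0.867 and 0.864. Over the 16 libraries of the second cohort, which held no Control, they were 0.682, 0.691, 0.418, 0.603 and 0.738. For the other ligands the closest genes were Dok2 for Hbegf (0.839 in the first cohort, 0.0118 in the second), Tomm34 for Tgfa (0.808, 0.00588), Pik3cg for Areg (0.813, 0.368), Pnp2 for Ereg (0.878, 0.232) and Dnajb14 for Btc (0.931, 0.794). For the receptors they were Tinagl1 for Egfr (0.898, 0.724), Btbd9 for Erbb2 (0.926, 0.288), Spink10 for Erbb3 (0.883, 0.494) and Hs3st3b1 for Erbb4 (0.926, 0.679). All genes of a library share its depth and cell makeup, and the correlations are descriptions with no test.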

How the data were processed

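Whole-number 3′ tag counts per gene, as deposited by the authors, were used for all 41 libraries. Per the submitters' processing notes, the first cohort used Trimmomatic, STAR, HTSeq 0.6.1 and GRCm38, and the second STAR 2.7.11b and GRCm39. Whether counting used strand is not given in the sources used here. Counts were analysed with edgeR 4.0.16 in R 4.3.3: TMM factors, the default low-count filter, and 1 quasi-likelihood fit over all groups of a cohort, with Benjamini-Hochberg adjustment and a threshold of 0.05. Cohorts were fitted separately, and their difference in a joint fit. The edgeR SE is the absolute log2 fold change divided by the square root of the test's F statistic. Intervals of fold changes are 1.96 of these SE to either side. Egf beside segment markers used log2(CPM + 1) and exact two-sided permutation tests over libraries. Alternatives were DESeq2 1.42.0, other size factors, no filter, 2-group fits, library blocks and leaving out each library, and the fits were tested on simulated data. Symbols were matched for 48349 genes, and 446 had none. Totals per library set the precision, from 5090418 to 33362940 counts. The members and lists were chosen with earlier results of these data known. By name, the text gives all members, up to 4 genes of each pathway list with the smallest adjusted p per main comparison, up to 2 of a marker list, the 5 genes most like Egf and 1 for each other member.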

Additional observations from a re-analysis of the deposited data

Results flagged for a closer look

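In 8 of 70 sets of a gene and a group, the highest or lowest library lay far from the rest of its group. Its gap to the nearest library, divided by the range of the group, passed Dixon's 95% critical value, which about 1 in 20 groups pass by chance. Egf was lowest in WT_IRd3 replicate 6, at 16.2 CPM. Hbegf was lowest in Control replicate 5, at 22.8 CPM, and the UIRI d3 call of Hbegf rests on that library. Tgfa was highest in WT_IRd7 replicate 3, at 12.8 CPM. Areg was highest in WT_IRNxd7 replicate 3, at 1.63 CPM, and in Control replicate 2, at 0.156 CPM, the single Control library with any count. Ereg was highest in UIRI d3 replicate 3, at 2.58 CPM, and in Control replicate 4, at 0.778 CPM. Btc was highest in UIRI d7 replicate 4, at 19.6 CPM.

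The library without a group is labelled UNDETERMINED, and its column name reads Undetermined where the others carry a library number. No label ties its counts to a kidney, so its values cannot be read as those of a kidney sample. This library held 12446693 counts and entered no comparison. Its plain CPM, with 95% Wilson intervals that cover counting error only, lay above the highest Control library for Hbegf (62.6, interval 58.3 to 67.1, against 46.6), Tgfa (7.55, 6.17 to 9.24, against 5.89), Areg (0.562, 0.272 to 1.16, against 0.137) and Egfr (64.2, 59.9 to 68.8, against 42.0). Its Egf stood at 68.1 plain CPM (63.6 to 72.8), against 287 to 763 in Control.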

How the results depend on the processing

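Egf against Control kept its direction and its call under every alternative run. Fits within a block hold fewer libraries. Counts of genes called moved by over 1.5 times in these cases, and the cause was not tested. UIRI+Nx d7 against Control had 4909 genes called, and 2933 within block 1a and 1709 within block 2b. UIRI d3 against Control had 5132, and 2729 and 2366 within these blocks. UIRI+Nx d7 against UIRI d7 had 1040, and 586 from the 2 groups alone and 131 within block 1a. UIRI+Nx d7 against UIRI d3 had 805, and 113 and 37 within blocks 1a and 2b. UIRI d7 against UIRI d3 had 409, and 714 by DESeq2 and 0 within block 1a. WT_IRNxd7 against WT_IRd7 had 814, and 1249 by DESeq2, 176 within block 2a and 16 within block 2c. WT_IRNxd7 against WT_IRd3 had 935, and 477 within block 2a. WT_IRd7 against WT_IRd3 had 1330, and 349 when the block was a covariate and 207 within block 2a. The difference between cohorts had 0 by edgeR, and 4 and 1 by DESeq2 for UIRI+Nx d7 against UIRI d7 and against UIRI d3. Against Umod and Slc12a1 alone, Egf turned to 0.1756 in UIRI d7 against UIRI d3 and 0.2299 in WT_IRd7 against WT_IRd3, and its differences of -0.8805 in WT_IRNxd7 against WT_IRd7 and -0.6506 against WT_IRd3 lost their calls.

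Leaving out 1 library gave 4451 to 5314 genes called in UIRI+Nx d7 against Control, 5709 to 6318 in UIRI d7 against Control and 4634 to 5534 in UIRI d3 against Control. It gave 695 to 1101 in UIRI+Nx d7 against UIRI d7, 524 to 994 against UIRI d3 (525 and 524 without UIRI+Nx d7 replicate 3 or 4) and 247 to 439 in UIRI d7 against UIRI d3 (263 and 247 without UIRI d7 replicate 2 or 3). In the second cohort it gave 328 to 910 in WT_IRNxd7 against WT_IRd7 (328 without WT_IRNxd7 replicate 2), 554 to 1147 against WT_IRd3 (554 and 615 without WT_IRNxd7 replicate 2 or 4) and 923 to 1536 in WT_IRd7 against WT_IRd3. Egf beside the segment markers ranged from -0.6367 to -0.2236 in UIRI+Nx d7 against UIRI d7, -0.8305 to -0.4174 against UIRI d3, -1.107 to -0.7695 in WT_IRNxd7 against WT_IRd7 and -1.232 to -0.8942 against WT_IRd3.

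Values of uncalled genes that changed sign stayed uncalled. With the replicate number as a block, Erbb4 was 0.006918 in UIRI d7 against Control and -0.04997 in WT_IRNxd7 against WT_IRd7, and Egf -0.03469 in UIRI+Nx d7 against UIRI d7. With the library block as a covariate Erbb3 was -0.1812 in UIRI d7 against Control. Within block 1a Hbegf was -0.03078 in UIRI+Nx d7 against Control and Erbb4 0.01682 in UIRI+Nx d7 against UIRI d7, and within block 2b Erbb2 was -0.2359 in UIRI d3 and Tgfa -0.07905 in UIRI+Nx d7 against Control. In WT_IRNxd7 against WT_IRd7, Egfr was -0.02259 and Erbb4 -0.1032 within block 2a, and Erbb2 0.1023 and Erbb3 0.2835 within block 2c.

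Leaving out 1 library also turned the sign of values near 0, none of them called. In UIRI+Nx d7 against Control, Tgfa ran from -0.04363 to 0.1815 and Erbb2 from -0.2175 to 0.01763. In UIRI d7 against Control, Erbb3 ran from -0.1361 to 0.208 and Erbb4 from -0.3487 to 0.15, and in UIRI d3 Erbb3 from -0.2811 to 0.01108. In UIRI+Nx d7 against UIRI d7, Egf ran from -0.3177 to 0.2743, Areg from -0.03082 to 0.6387, Btc from -0.576 to 0.19 and Erbb4 from -0.4497 to 0.05773. In WT_IRNxd7 against WT_IRd7, Erbb3 ran from -0.2189 to 0.07459 and Erbb4 from -0.04613 to 0.321.

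The labels do not say that replicate numbers pair the samples, and the values do not settle it. Correlations of deviations between same-numbered samples ran from -0.48 to 0.518, and no comparison had all above 0.1. In WT_IRNxd7 against WT_IRd7 they ran from 0.048 to 0.299, with 3 of 4 above 0.1. With the number as a block, Egf (-0.88), Ereg (2.42) and Btc (0.95) were called in WT_IRNxd7 against WT_IRd7 (edgeR adjusted p = 0.0432, 0.022 and 0.0419), Btc in UIRI d3 and UIRI+Nx d7 against Control (0.045 and 0.0409), and Erbb4 in UIRI d3 was not (0.0565). Depth limits Areg and Ereg most, with 3 and 11 counts over all Control libraries.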
